A study of Mus musculus with 503 samples.

Results

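The 6 genes described here encode the 2 platelet-derived growth factor (PDGF) receptors, *Pdgfra* and *Pdgfrb*, and the 4 PDGF ligands, *Pdgfa*, *Pdgfb*, *Pdgfc* and *Pdgfd*. They were taken by symbol from the 56701 gene rows of the count table, and all 6 had counts in these cells. PDGFs are secreted dimers that bring together receptor tyrosine kinases on the cell that receives them. PDGF-A and PDGF-C act mainly through PDGFRα, PDGF-D mainly through PDGFRβ, and PDGF-B through both. PDGF-B released by endothelium recruits pericytes, the mural cells of capillaries, through PDGFRβ. In the central nervous system PDGFRα is known for marking fibroblasts and oligodendrocyte progenitors.

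The cells were perivascular cells of the mouse spinal cord, sorted singly into plates and sequenced with Smart-seq3, a full-length single-cell RNA method. Every cell is labelled as female. The study's methods state that crush lesions were made in females only, whereas its reporting summary states that animals of both sexes were used for sequencing. All mice carried *GLAST-CreERT2*, *R26R-tdTomato* and *Pdgfrb-eGFP*. Tamoxifen-activated Cre under the control of GLAST (*Slc1a3*, a glutamate transporter) turns on tdTomato for good in a cell and its progeny, so tdTomato reports GLAST activity at the time of labelling, and EGFP reports activity of *Pdgfrb*. In all, 468 labelled cells passed the filters, in 4 groups: uninjured tdTomato+EGFP+ (65 cells on plate 209 and 72 on plate 213), uninjured tdTomato-EGFP+ (46 and 60 cells), and, from the crushed segment 3 days after spinal cord injury (SCI), injured tdTomato+EGFP+ (88 cells on plate 211 and 34 on plate 215) and injured tdTomato-EGFP+ (58 and 45 cells). The treatment label of each injured cell gives 3 days. The extraction protocol and the series description also name 5 days, and the treatment label was followed. Values listed for all groups follow the order in which the groups are named here.

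Since EGFP driven by *Pdgfrb* was a gate of the sort, a *Pdgfrb* count in nearly every cell is not a finding. A further filter compared *Pecam1* with *Pdgfrb*. Every deposited sample is 1 cell and no label names an animal, so each group is 1 sample: no test was possible, and differences were checked only between plates. Levels are CPM (a gene's counts scaled to the total counts) of the counts summed over the cells of a group. Their 95% intervals are exact Poisson ones and cover counting error only, since amplified reads are not independent molecules. In such sums, fewer cells of a type and less RNA per cell cannot be told apart. Uninjured cells lay on plates 209 and 213 and injured cells on plates 211 and 215, with both sorts on every plate, so injury and plate cannot be told apart. A group held 25645409 to 38406035 counts. The 34 injured tdTomato+EGFP+ cells of plate 215 were shallow, with a median of 14770 counts and 1677209 in all, against a median of 328802 on plate 211. The sums of that group therefore follow plate 211.

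The cells are labelled as perivascular cells, and markers of pericytes and perivascular fibroblasts were found in every group, although pericyte markers were low in injured tdTomato+EGFP+ cells. Summed over 9 pericyte markers, the level was 11330 and 12530 CPM in uninjured tdTomato+EGFP+ and tdTomato-EGFP+ cells, 696 CPM in injured tdTomato+EGFP+ cells and 11490 CPM in injured tdTomato-EGFP+ cells. The sum of 8 perivascular fibroblast markers was 4374, 2226, 21500 and 9363 CPM in the same order. The sum of 6 endothelial markers was 4504, 4806, 408 and 1794 CPM, and 97.8%, 90.6%, 86.9% and 85.4% of the cells had a count of *Pecam1*, *Cldn5* or *Cdh5*, which endothelial cells express. Of 5 oligodendrocyte progenitor markers, *Olig2* had no count in 3 groups, and their sum lay between 1.64 and 48.8 CPM. The sum of 4 platelet markers lay between 2.90 and 10.2 CPM.

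*Pdgfra*, the receptor gene by which perivascular fibroblasts are usually told from pericytes, was higher in tdTomato+EGFP+ than in tdTomato-EGFP+ cells on every plate. In uninjured tdTomato+EGFP+ cells it was at 223 CPM (218 to 228), with 208 CPM on plate 209 and 233 CPM on plate 213. Uninjured tdTomato-EGFP+ cells had 28.9 CPM (26.9 to 31.04), with 67.2 and 10.8 CPM on the same plates, and 1 cell held 31.4% of these counts. At 3 days, tdTomato+EGFP+ cells were at 350 CPM (343 to 356), with 346 CPM on plate 211 and 407 CPM on plate 215. Injured tdTomato-EGFP+ cells were at 83.6 CPM (80.1 to 87.3), with 55.6 and 109.1 CPM on those plates. The ranges of the 2 sorts did not overlap in either condition, whereas those of uninjured and injured tdTomato-EGFP+ cells did.

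*Pdgfrb*, the receptor gene of mural cells, was measured among cells chosen for its reporter. It was at 1503 CPM (1491 to 1516) in tdTomato+EGFP+ cells of uninjured cord, with 1624 CPM on plate 209 and 1416 CPM on plate 213. Uninjured tdTomato-EGFP+ cells had 1881 CPM (1865 to 1898), with 1889 and 1878 CPM on the plates. At 3 days it was at 1213 CPM (1201 to 1226) in tdTomato+EGFP+ cells, with 1216 CPM on plate 211 and 1167 CPM on plate 215. Injured tdTomato-EGFP+ cells had the highest level, 2491 CPM, with 2989 and 2038 CPM. Both plates of that group lay above every plate of the other 3 groups.

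*Pdgfa*, whose product acts on PDGFRα, stood apart in injured tdTomato-EGFP+ cells. It was at 164 CPM (159 to 169) there, with 111.9 CPM on plate 211 and 211 CPM on plate 215. The other groups lay close together, at 40.1 CPM (38.1 to 42.2) in uninjured tdTomato+EGFP+, 44.6 CPM (42.1 to 47.2) in uninjured tdTomato-EGFP+ and 38.03 CPM (35.9 to 40.3) in injured tdTomato+EGFP+ cells. Their plates ranged from 34.7 to 49.4 CPM and overlapped among the 3 groups.

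*Pdgfb*, the ligand gene of endothelium and platelets, was at 88.6 CPM (85.7 to 91.7) in tdTomato+EGFP+ cells of uninjured cord, with 73.7 and 99.4 CPM on plates 209 and 213, whereas tdTomato-EGFP+ cells without injury had 89.2 CPM (85.7 to 92.8), with 96.2 and 85.9 CPM. Injured tdTomato-EGFP+ cells had 20.8 CPM (19.1 to 22.7), with 14.6 CPM on plate 211 and 26.5 CPM on plate 215. Injured tdTomato+EGFP+ cells had 3.50 CPM (2.88 to 4.22), with 3.67 CPM and, from 1 count, 0.596 CPM. The uninjured and injured plates did not overlap in either sort.

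*Pdgfd*, whose product acts mainly on PDGFRβ, was at 92.4 CPM (89.4 to 95.5) in tdTomato+EGFP+ cells of uninjured cord, with 109.3 and 80.3 CPM on plates 209 and 213. Uninjured tdTomato-EGFP+ cells had 155.4 CPM (150.7 to 160.1), with 125.9 and 169 CPM. Injured tdTomato-EGFP+ cells were at 28.8 CPM (26.7 to 30.9), with 15.4 and 40.9 CPM on plates 211 and 215, and injured tdTomato+EGFP+ cells at 9.44 CPM (8.39 to 10.6), with 9.95 CPM and, from 1 count, 0.596 CPM. As for *Pdgfb*, every uninjured plate lay above every injured plate of the same sort.

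*Pdgfc*, the other ligand gene for PDGFRα, was under 10 CPM in all 4 groups. It had 8 counts in uninjured tdTomato+EGFP+ cells (0.208 CPM, 0.0899 to 0.410), 257 in uninjured tdTomato-EGFP+ cells (9.56 CPM, 8.42 to 10.8), 79 in injured tdTomato+EGFP+ cells (2.54 CPM, 2.01 to 3.16) and 57 in injured tdTomato-EGFP+ cells (2.22 CPM, 1.68 to 2.88). One cell held 65.4% of the counts of uninjured tdTomato-EGFP+ cells, and without it the level was 3.37 CPM. Too few cells carried *Pdgfc* at this depth for a comparison of groups.

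**Figure D1:**
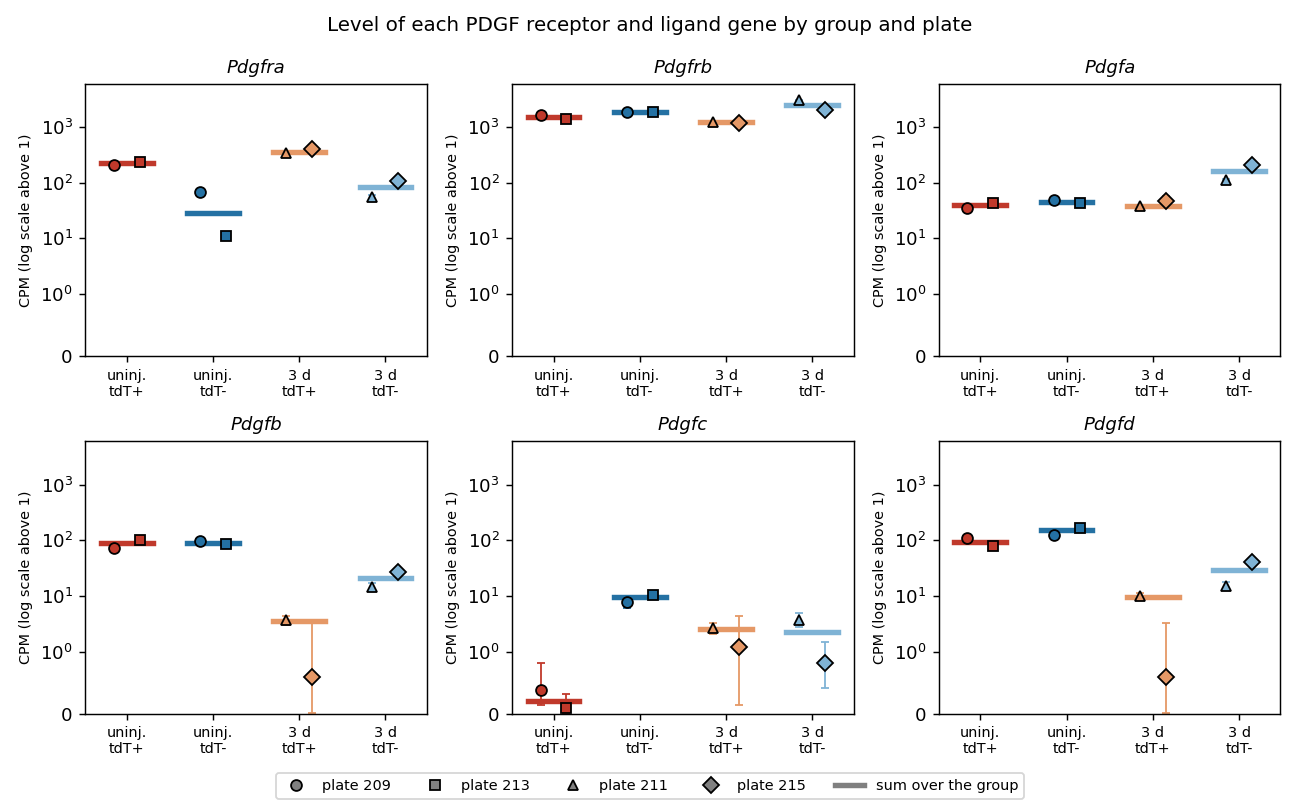
Level of each gene in CPM (log scale above 1, linear below) in the 4 groups. Horizontal lines are the sums over a group, symbols are plates with 95% Poisson intervals that cover counting error only. *Pdgfb* and *Pdgfd* are lower on both injured plates than on both uninjured plates in either sort, and *Pdgfa* is highest in injured tdTomato-EGFP+ cells (164 CPM).

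Levels were set between genes only per length, as CPM per kb of the union of a gene's exons in GENCODE M21. This scale assumes counts that grow with transcript length, which holds for reads and not for molecules, and the sources used here do not say which was counted. In uninjured tdTomato+EGFP+ cells the order was *Pdgfrb* (274 CPM per kb), *Pdgfd* (29.3), *Pdgfra* (22.2), *Pdgfb* (21.3), *Pdgfa* (12.9) and *Pdgfc* (0.0409 CPM per kb), and the plates of *Pdgfra* and *Pdgfb* overlapped. Uninjured tdTomato-EGFP+ cells had the order *Pdgfrb* (343 CPM per kb), *Pdgfd* (49.3), *Pdgfb* (21.4), *Pdgfa* (14.3), *Pdgfra* (2.89) and *Pdgfc* (1.88 CPM per kb), where the last 2 overlapped. After injury, *Pdgfra* followed *Pdgfrb* in tdTomato+EGFP+ cells (34.9 after 222 CPM per kb), ahead of *Pdgfa* (12.2 CPM per kb), and the plates of *Pdgfd*, *Pdgfb* and *Pdgfc* overlapped (2.99, 0.841 and 0.499 CPM per kb in the sums). In injured tdTomato-EGFP+ cells *Pdgfa* was the gene next to *Pdgfrb* (52.6 after 455 CPM per kb), and *Pdgfd* (9.12), *Pdgfra* (8.34) and *Pdgfb* (5.00 CPM per kb) were next, with overlapping plates, before *Pdgfc* (0.437 CPM per kb). Thus *Pdgfd* was the ligand gene of highest level per length in both uninjured sorts, and *Pdgfa* in both injured sorts.

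The single cells showed how these sums were made up. Among cells with 20000 or more counts, *Pdgfra* had a lowest value of 0, a median of 275 and a highest value of 1923 CPM over 100 injured tdTomato+EGFP+ cells. In each of the other 3 groups its median was 0 CPM, with highest values of 2625 CPM (uninjured tdTomato+EGFP+), 1238 CPM (uninjured tdTomato-EGFP+) and 1457 CPM (injured tdTomato-EGFP+). A high level was therefore held by a minority of cells in those 3 groups and by most cells in the injured tdTomato+EGFP+ group. *Pdgfa* had a median of 100.5 CPM over injured tdTomato-EGFP+ cells, from 0 to 822 CPM, against 16.7 CPM in the tdTomato+EGFP+ cells of injured cord and 0 CPM in both uninjured groups. The median of *Pdgfb* was 16.4 and 34.5 CPM in uninjured tdTomato+EGFP+ and tdTomato-EGFP+ cells and 0 in both injured groups.

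After thinning of each cell to 20000 counts, which left out 10, 14, 22 and 1 shallower cells of the groups, a *Pdgfra* count was found in 84 of 100 tdTomato+EGFP+ cells at 3 days (84%, exact binomial interval 75.3 to 90.6). The share was 23.6% (16.5 to 31.97) in tdTomato+EGFP+ cells of uninjured cord, 7.61% (3.11 to 15.05) in their tdTomato-EGFP+ neighbours on the same plates, and 25.5% (17.4 to 35.1) in tdTomato-EGFP+ cells at 3 days. Thus the share of tdTomato+EGFP+ cells with *Pdgfra* was 23.6% before and 84% after injury, while the summed level was 223 and 350 CPM. Before thinning the shares of the 4 groups were 27.7%, 12.3%, 85.2% and 33.01%. *Pdgfa* had a count in 25.2% (17.9 to 33.7) and 27.2% (18.4 to 37.5) of uninjured cells of the tdTomato+ and tdTomato- sorts, and in 44% (34.1 to 54.3) and 63.7% (53.6 to 73.02) after injury. Shares of cells with *Pdgfb* were 45.7% and 46.7% before injury and 2% (0.243 to 7.04) and 17.6% (10.8 to 26.5) after it. For *Pdgfd* they were 47.2%, 52.2%, 13% and 22.5% in the same order.

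Counts of a receptor gene and a ligand gene in the same cell were tallied after the same thinning. At 3 days 83% (74.2 to 89.8) of tdTomato+EGFP+ cells had counts of both receptors, and in the other 3 groups the shares were 23.6%, 7.61% and 25.5%, which are those of *Pdgfra* alone. *Pdgfra* and its ligand gene *Pdgfa* were seen together at 3 days in 31% (22.1 to 41.03) of tdTomato+EGFP+ cells, against 5.88% (2.19 to 12.4) of the other sort. Before injury the pair was seen in 3.94% (1.29 to 8.95) of tdTomato+EGFP+ cells and in 0 of 92 tdTomato-EGFP+ cells. For the latter the exact binomial interval reaches 3.93% of cells with both counts at the thinned depth. At full depth the shares of cells with both were 11.7% and 3.77% before injury and 55.7% and 25.2% after it. *Pdgfrb* and *Pdgfb* were together in 45.7% and 46.7% of cells before injury and in 2% and 17.6% after it, which are the shares of *Pdgfb* alone, as the sort leaves a *Pdgfrb* count in nearly every cell. At least 1 ligand gene had a count in 69.3% (60.5 to 77.2) and 76.1% (66.1 to 84.4) of uninjured cells and in 51% (40.8 to 61.1) and 77.5% (68.1 to 85.1) of injured cells. Shares with 2 or more ligand genes were 38.6% and 43.5% before injury and 8% (3.52 to 15.2) and 22.5% (14.9 to 31.9) after it. *Pdgfra* was found with the proliferation gene *Mki67* at 3 days in 38% (28.5 to 48.2) of the tdTomato+EGFP+ sort and 5.88% (2.19 to 12.4) of the other, and with the pericyte gene *Rgs5* in 2% (0.243 to 7.04) and 5.88% (2.19 to 12.4).

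**Figure D2:**
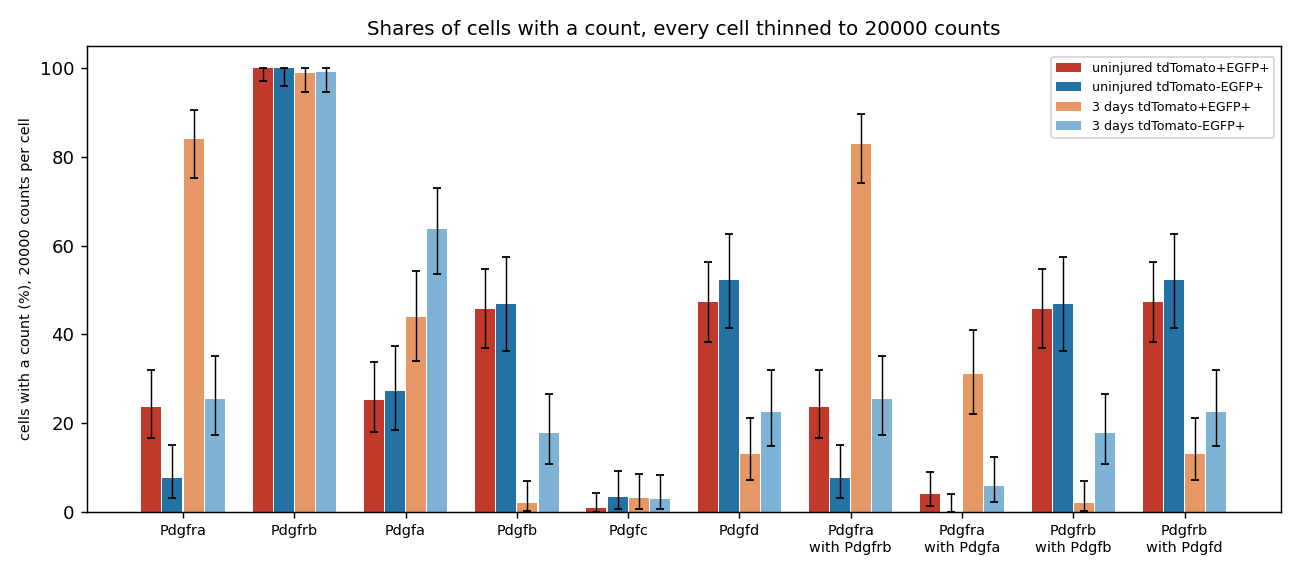
Percent of cells with a count of each gene, or of both genes of a pair, in the 4 groups after thinning of every cell to 20000 counts. Error bars are exact 95% binomial intervals. The *Pdgfra* bar of injured tdTomato+EGFP+ cells (84%) stands above those of the other 3 groups, and the *Pdgfb* and *Pdgfd* bars of both injured groups lie below those of the uninjured groups.

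The sorts were compared within plates to ask how cells with and without the tdTomato label differ. Absence of tdTomato does not show absence of GLAST activity. From a comparison of tdTomato-EGFP+ cells, the study left out *Slc1a3*+*Pdgfra*+ fibroblasts, which it describes as nonrecombined GLAST+ cells. Such cells were not removed here. A gene was taken as past the fold at a difference of 1 or more in log2(CPM + 1) between the summed groups with the same sign on both plates, among genes at 10 CPM or more in the higher group. In uninjured cord 5 of 6 members could be read, and 1 was past the fold: *Pdgfra* was 7.48-fold higher in tdTomato+EGFP+ cells (log2 difference 2.90, plates 1.62 and 4.30). Of 11198 genes tested, 4.31% were past the fold upward and 3.61% downward. *Pdgfd* had a log2 difference of -0.74 (-0.20 and -1.07), *Pdgfrb* -0.32 (-0.22 and -0.41), *Pdgfa* -0.15 (-0.50 and 0.06) and *Pdgfb* -0.01 (-0.38 and 0.21). The last 2 differed in sign between the plates. Some perivascular fibroblast markers moved with *Pdgfra*: 3 of 8 were past the fold upward, none downward, with a median log2 difference of 1.01. The marker *Pi16* was lower in tdTomato+EGFP+ cells (125.9 against 237 CPM). The part of these markers in the *Pdgfra* result was not tested. Vascular smooth muscle cell (vSMC) markers moved the other way: all 6 were lower in tdTomato+EGFP+ cells past the fold, with a median of -2.12, and their sum was 934 CPM against 2992 CPM in tdTomato-EGFP+ cells. Their part in the *Pdgfd* and *Pdgfa* values was not tested.

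At 3 days all 5 members read were past the fold between the sorts. *Pdgfra* was 4.14-fold higher in tdTomato+EGFP+ cells (2.05, plates 1.89 and 2.62), where 4.31% of 10631 genes were past the fold upward. Lower in tdTomato+EGFP+ cells were 4 members, against 17.9% of all genes: *Pdgfa* by 4.23-fold (-2.08, plates -2.16 and -1.55), *Pdgfb* by 4.85-fold (-2.28, -1.74 and -4.11), *Pdgfd* by 2.85-fold (-1.51, -0.58 and -4.71) and *Pdgfrb* by 2.05-fold (-1.04, -1.30 and -0.80). The median of all genes was itself at -0.32 in this comparison and at 0.05 with TMM factors, which scale the sums by a trimmed mean of the log ratios between them. With those factors *Pdgfrb* was at -0.66 and not past the fold, while *Pdgfra* (2.43), *Pdgfa* (-1.71), *Pdgfb* (-1.98) and *Pdgfd* (-1.17) were. All 9 pericyte markers and 5 of 6 endothelial markers were lower in tdTomato+EGFP+ cells past the fold. Of 8 perivascular fibroblast markers, 4 were past the fold upward and 1 downward (median 0.90), and of 5 vSMC markers tested 1 was upward and 2 downward (median -0.71). The part of these cell types in the differences was not tested. When CPM was averaged over cells instead of summed, *Pdgfb* was at 1.15, with 1 shallow cell of plate 215 at 4255 CPM. Without plate 215 *Pdgfd* was at -0.58 and not past the fold, and without plate 211 *Pdgfrb* was at -0.80 and not past it.

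Injured and uninjured cells of a sort were compared to ask how injury changes the expression of the genes, over the 4 ways to pair a plate from injured cord with 1 from uninjured cord. In tdTomato+EGFP+ cells 2 members were past the fold, both downward, against 34.3% of 11429 genes downward and 10.8% upward. *Pdgfb* was 19.9-fold lower (log2 difference -4.32, pairs -5.97 to -4.00) and *Pdgfd* 8.94-fold lower (-3.16, pairs -6.11 to -2.89). When CPM was averaged over cells, *Pdgfb* was at -0.999 and not past the fold, while *Pdgfd* was at -3.43. That average included a shallow cell of plate 215 with 1 *Pdgfb* count of 235 counts (4255 CPM). With only cells of 20000 or more counts, *Pdgfb* was at -4.32 and past the fold. *Pdgfra* had a difference of 0.65 (pairs 0.57 to 0.96), *Pdgfrb* of -0.31 (-0.48 to -0.22) and *Pdgfa* of -0.07 (-0.22 to 0.41). The median of all genes was at -0.59 here and at 0.07 with TMM factors, under which *Pdgfra* was at 1.32 and past the fold, and *Pdgfrb* and *Pdgfa* turned to 0.37 and 0.59. The sum of pericyte markers was lower on the injured plates (200 to 724 CPM against 10460 to 12530 CPM), with 9 of 9 past the fold, and so was that of endothelial markers (193 to 421 against 4041 to 5145 CPM). Of 8 fibroblast markers, 5 were past the fold upward and 1 downward.

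In tdTomato-EGFP+ cells *Pdgfa* was 3.62-fold higher after injury (1.86, pairs 1.16 to 2.29), where 9.52% of 11434 genes were past the fold upward. *Pdgfb* was 4.13-fold lower (-2.05, pairs -2.64 to -1.66) and *Pdgfd* 5.25-fold lower (-2.39, pairs -3.38 to -1.60), against 17% of genes downward. *Pdgfra* had a difference of 1.499, but its pairs ran from -0.27 to 3.22. Without the injured cell of most counts, which held 20.1% of its group's, and with all uninjured cells, it was at 1.20. The top uninjured cell held 31.4%. Without its own top cell each group was at 67.6 CPM (injured) and 20.2 CPM (uninjured). *Pdgfrb* was at 0.40 (0.11 to 0.67). The median of all genes was at -0.20 and with TMM factors at 0.08, under which *Pdgfa* (2.13), *Pdgfb* (-1.77) and *Pdgfd* (-2.11) were also past the fold and so was *Pdgfra* (1.78). Of 6 endothelial markers, 5 were lower past the fold here too, as were 3 of 6 vSMC markers, while 6 of 8 fibroblast markers were higher and 1 lower. The part of endothelial RNA and of these cell types in the differences was not tested. Each group enters 1 comparison of the sorts and 1 of injury, so these comparisons share cells.

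The injury differences of the sorts were then set against each other, tdTomato+EGFP+ minus tdTomato-EGFP+, with no test. For *Pdgfa* the difference of differences was -1.93, with 4 of 4 plate pairs below 0 (-2.21 to -1.05). For *Pdgfb* it was -2.27 and for *Pdgfrb* -0.71, again with 4 of 4 pairs below 0. The value of *Pdgfb* turned to 1.19 when CPM was averaged over cells, an average that includes the shallow cell of plate 215. It turned to 1.27 without cells with endothelial transcripts and to 2.72 in cells under 1000 CPM of endothelial markers, so its sign was not stable. That of *Pdgfrb* was -0.32 with TMM factors and -0.14 with DESeq2 size factors, and that of *Pdgfa* stayed between -2.13 and -0.98 over the settings tried. The pairs of *Pdgfra* (-2.42 to 1.00) and *Pdgfd* (-4.51 to 0.48) lay on both sides of 0.

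**Figure D3:**
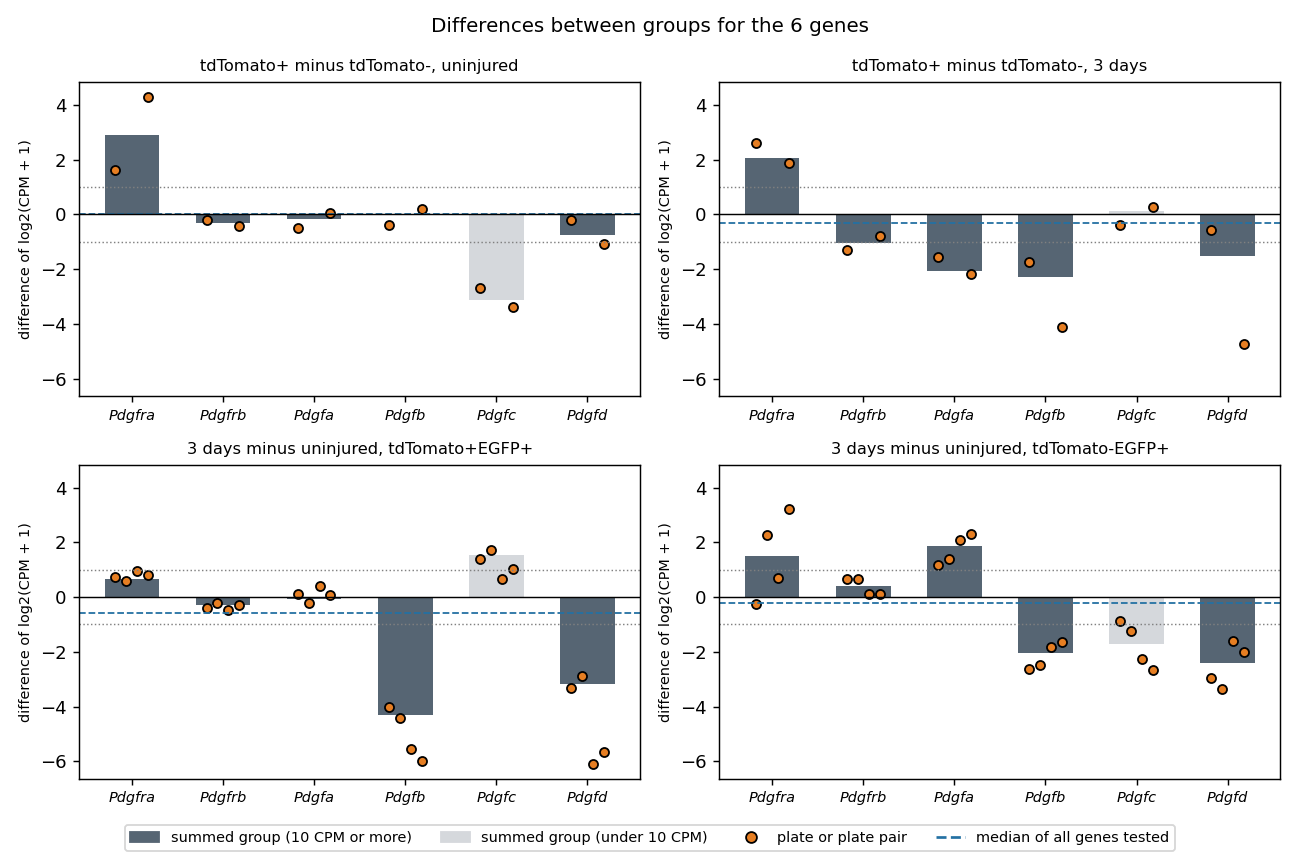
Differences of log2(CPM + 1) for the 6 genes in the 4 comparisons. Bars are summed groups (light grey where a gene was under 10 CPM in both), points are plates (sort) or plate pairs (injury), the dashed line is the median of all genes tested and dotted lines mark 1 and -1. *Pdgfra* lies above 1 in both comparisons of the sorts, and *Pdgfb* and *Pdgfd* lie below -1 in both comparisons with uninjured cells.

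Endothelial transcripts moved with *Pdgfb*, so the cells were divided by their summed level of 6 endothelial markers, a division chosen after seeing the data. In cells under 1000 CPM of these markers, *Pdgfb* was at 0.679 CPM (0.273 to 1.40) in 37 tdTomato+EGFP+ cells of uninjured cord, 9.78 CPM (7.42 to 12.6) in 31 uninjured tdTomato-EGFP+ cells, 1.38 CPM (0.995 to 1.87) in 120 injured tdTomato+EGFP+ cells and 1.33 CPM (0.866 to 1.94) in 79 injured tdTomato-EGFP+ cells. In cells at 5000 CPM or more it was in uninjured cord at 132.8 CPM (128.2 to 137.6) for 83 cells of the tdTomato+EGFP+ sort and 129.6 CPM for 62 of the tdTomato-EGFP+ sort, and at 86.7 CPM (77.3 to 97.01) in 16 tdTomato-EGFP+ cells at 3 days. *Pdgfb* was thus at or near 0 in cells poor in endothelial transcripts, before injury in tdTomato+EGFP+ cells and after it in both sorts. In this split endothelial transcripts and cell type cannot be told apart. The fibroblast-like cluster described below had 0 *Pdgfb* counts in 26 uninjured tdTomato+EGFP+ cells. With only cells under 1000 CPM, the injury difference of *Pdgfb* was 0.50 in tdTomato+EGFP+ cells and -2.21 in tdTomato-EGFP+ cells, and neither was counted as past the fold, since the level was under 10 CPM in all 4 groups of such cells. Whether *Pdgfb* was made in the sorted cells or came with endothelial RNA was not tested.

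*Pdgfd* departed from this pattern in uninjured tdTomato-EGFP+ cells, where it was at 207 CPM (195.3 to 219) in cells under 1000 CPM of endothelial markers and at 153.7 CPM in cells at 5000 CPM or more. In uninjured tdTomato+EGFP+ cells it was at 15.8 CPM (13.5 to 18.4) and 131.6 CPM in these 2 ranges, and in injured tdTomato-EGFP+ cells at 17.3 CPM (15.6 to 19.3) and 83.02 CPM (73.8 to 93.1), so it was higher in cells rich in endothelial transcripts there. Restricted to the cells under 1000 CPM, the injury difference of *Pdgfd* was -3.50 in tdTomato-EGFP+ cells, past the fold, and -0.99 in tdTomato+EGFP+ cells. *Pdgfa* was at 118.5 CPM (109.9 to 127.6) among such tdTomato-EGFP+ cells before injury and 183 CPM (177 to 189) after it, so its injury difference was 0.62 and not past the fold. *Pdgfra* in cells under 1000 CPM was at 822 CPM (804 to 840) in uninjured and 358 CPM (351 to 364) in injured tdTomato+EGFP+ cells. Its injury difference was -1.20, past the fold downward, where all cells together gave 0.65. These uninjured cells, 37 in number, held 8468 of the 8556 *Pdgfra* counts of their group. The 26 cells of that group in the fibroblast-like cluster described below held 8464. The 120 injured cells were nearly their whole group, so the cells compared may differ in type. The part of cell type in the difference was not tested.

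**Figure D4:**
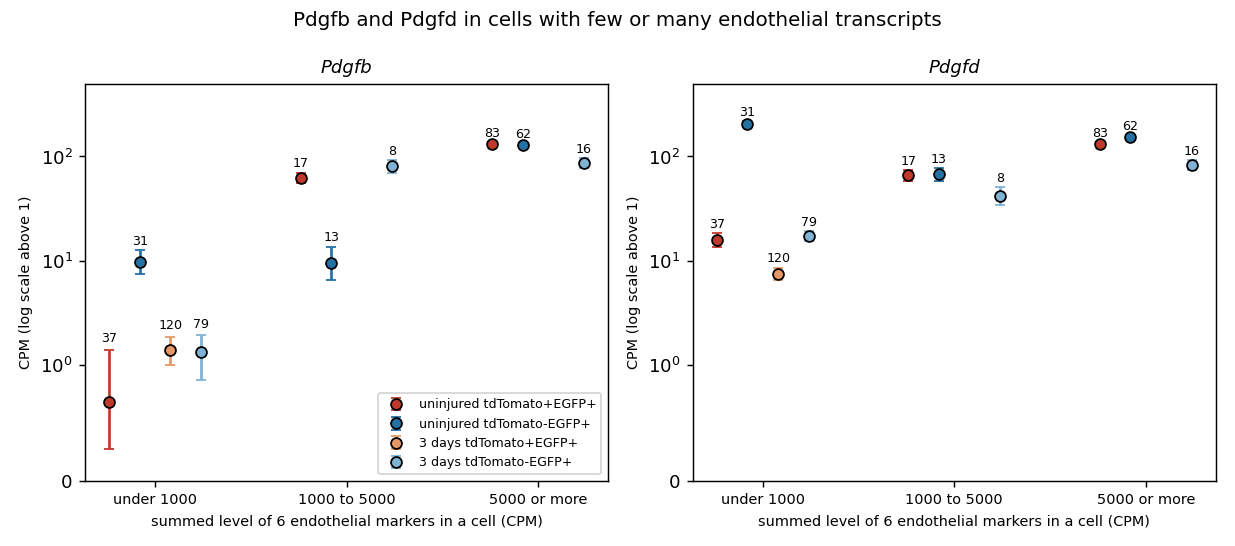
Level of *Pdgfb* and *Pdgfd* in CPM (log scale above 1) in cells grouped by the summed level of 6 endothelial markers, with 95% Poisson intervals and the number of cells above each point. Only bins with 5 or more cells are shown. *Pdgfb* is under 10 CPM in all 4 groups of cells in the lowest bin, while *Pdgfd* is at 207 CPM in uninjured tdTomato-EGFP+ cells there.

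Cells were also clustered together, with the 6 genes kept out of the genes used, and gave 6 clusters. Cluster 4 (72 cells, all 4 groups) was perivascular fibroblast-like, with 8 of 8 markers raised, cluster 5 (48 cells, of which 47 were injured tdTomato-EGFP+) was pericyte-like, with 7 of 9 markers raised and no endothelial marker raised, and cluster 6 (18 cells, of which 14 were uninjured tdTomato-EGFP+) was vascular smooth muscle cell (vSMC)-like, with 5 of 6 markers raised. Clusters 2 and 3 (with 61 and 37 tdTomato+EGFP+ and 51 and 23 tdTomato-EGFP+ cells of uninjured cord and few injured cells) had 8 and 9 of 9 pericyte markers and 6 and 5 of 6 endothelial markers raised and stay unnamed. Cluster 1 (98 injured cells of the tdTomato+EGFP+ sort and 17 of the tdTomato-EGFP+ sort) had 6 of 6 proliferation markers and 5 of 8 fibroblast markers raised and stays unnamed too. It also held 20 uninjured cells, mostly shallow ones, with medians of 2488 (tdTomato+EGFP+) and 2206 counts (tdTomato-EGFP+). Of the 6 vSMC markers, *Acta2* and *Tagln* were raised in cluster 1 as well, and *Acta2* and *Mylk* in cluster 5. A cluster mostly of 1 group may stand for that group rather than for a cell type.

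*Pdgfra* was at 654 CPM (643 to 665) in the fibroblast-like cluster 4 and at 278 CPM (272 to 284) in cluster 1. It was at 9.86 CPM in cluster 3, where 1 cell held 57.1% of the counts, and between 0.442 and 0.868 CPM in clusters 2, 5 and 6. Thinned to 20000 counts, 66 of 70 cells of cluster 4 had a count (94.3%, 86.01 to 98.4) against 1 cell of cluster 2 (0.893%, 0.0226 to 4.87). Before injury, cluster 4 held 98.9% of the *Pdgfra* counts of tdTomato+EGFP+ cells in 18.98% of the cells, and 98.7% of those of tdTomato-EGFP+ cells in 7.55% of the cells. After injury, cluster 1 held 74.96% of the *Pdgfra* counts of tdTomato+EGFP+ cells and cluster 4 held 23.97%, while in tdTomato-EGFP+ cells cluster 4 held 79.4% and cluster 1 20.05%. Nearly all counts of the receptor gene were thus in cluster 4 in uninjured cord, and in clusters 1 and 4 at 3 days.

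Within cluster 4, *Pdgfra* was at 959 CPM (938 to 979) in 26 tdTomato+EGFP+ cells of uninjured cord (873 and 1136 CPM on the plates). It was at 543 CPM (522 to 564) in 19 injured tdTomato+EGFP+ cells and 339 CPM (323 to 355) in 19 injured tdTomato-EGFP+ cells (245 and 417 CPM). For the injured tdTomato+EGFP+ cells only 1 plate had 5 or more cells, with 526 CPM of *Pdgfra* and 846 CPM of *Pdgfrb*. *Pdgfrb* had the order 516 CPM (501 to 531; plates 403 to 570), 850 CPM (824 to 876) and 326 CPM (311 to 342; plates 270.0 to 373). In cluster 1, *Pdgfra* was at 319 CPM (312 to 326) over 98 injured cells of the tdTomato+EGFP+ sort and 90.9 CPM (82.5 to 99.9) over 17 of the tdTomato-EGFP+ sort. Across the 6 clusters *Pdgfrb* was highest in the pericyte-like cluster 5 (3685 CPM, 3650 to 3721), at 2280 CPM in cluster 3, 1800 CPM in cluster 2, 1566 CPM in cluster 6, 1349 CPM in cluster 1 and lowest in cluster 4 (546 CPM, 536 to 556).

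Each ligand gene was highest in a cluster other than 1 and 4, but these 2 clusters held ligand counts too. In injured tdTomato+EGFP+ cells cluster 1 held 84.6% of the *Pdgfa* and 68.7% of the *Pdgfd* counts in 80.3% of the cells. In injured tdTomato-EGFP+ cells cluster 4 held 34.3% of the *Pdgfd* counts in 18.4% of the cells. *Pdgfa* was at 265 CPM (255 to 274) in the pericyte-like cluster 5 and at 247 CPM (232 to 261) in the vSMC-like cluster 6, and between 16.9 and 70.5 CPM in clusters 1 to 4. In injured tdTomato-EGFP+ cells cluster 5 held 70.1% of the *Pdgfa* counts in 45.6% of the cells, and in uninjured tdTomato-EGFP+ cells cluster 6 held 54.5% in 13.2% of the cells. *Pdgfb* was at 101.5 CPM (98.1 to 104.9) in cluster 2 and 134.9 CPM in cluster 3, at 14.5 CPM in cluster 6, and at 1.93 to 3.04 CPM in clusters 1, 4 and 5. In the 47 injured tdTomato-EGFP+ cells of cluster 5 it was at 1.99 CPM (1.25 to 3.01). *Pdgfd* was highest in cluster 6 (214 CPM, 201 to 228) and at 121.8 and 125.1 CPM in clusters 2 and 3. It was at 18.7 and 23.4 CPM in clusters 1 and 4, and at 0.265 CPM (0.0546 to 0.774), or 3 counts, in cluster 5. With a resolution of 0.3 or without regression it was instead highest in a cluster drawn mostly from cluster 2 (136.7 CPM without regression). Cluster 5 therefore had *Pdgfa* and almost no *Pdgfb* or *Pdgfd*. This did not hold for the 14 injured tdTomato-EGFP+ cells of cluster 3, which had 91.7 CPM of *Pdgfa*, 83.04 CPM of *Pdgfb* (73.2 to 93.8) and 66.3 CPM of *Pdgfd* (57.6 to 76.01). *Pdgfc* was at 48.6 CPM (42.4 to 55.4) in cluster 6, where 1 cell held 75% of the counts.

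**Figure D5:**
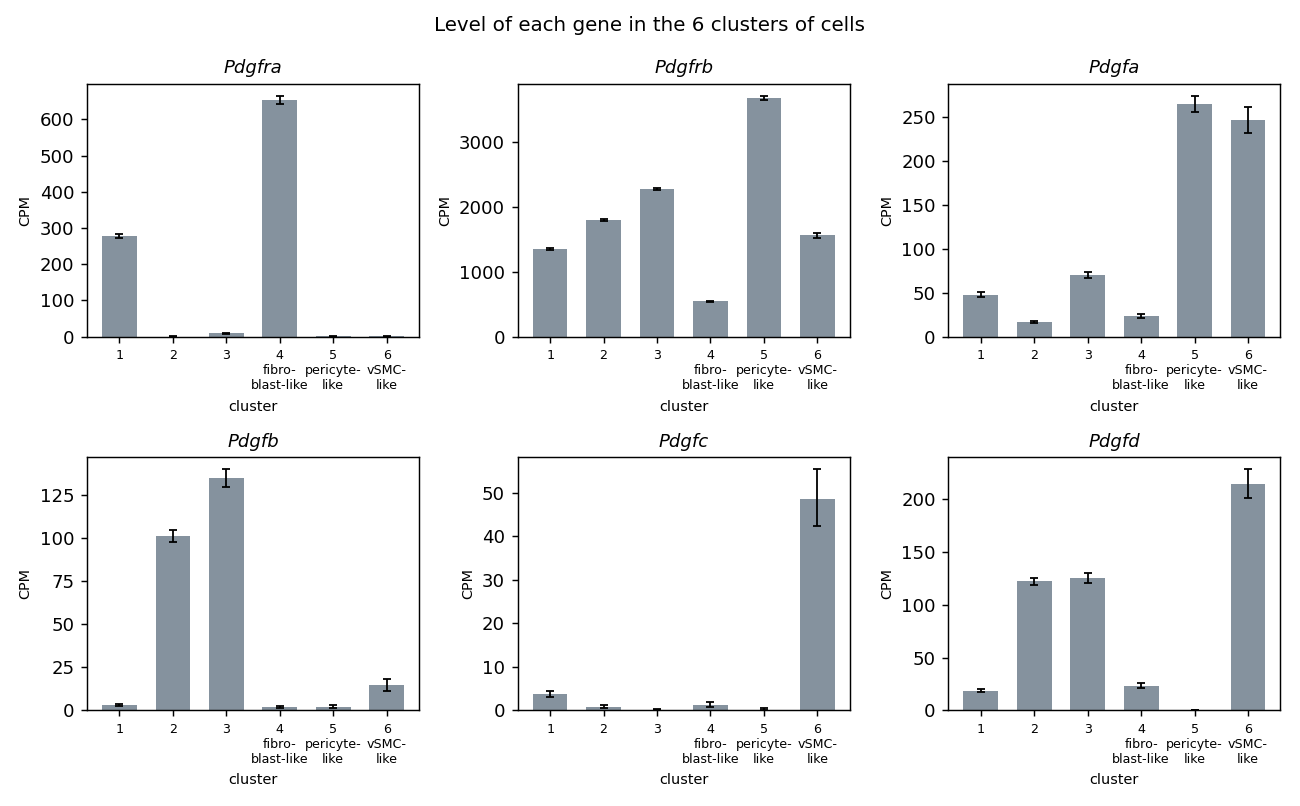
Level of each gene in CPM (linear scale, bars from 0, each panel with its own axis) in the 6 clusters, with 95% Poisson intervals that cover counting error only. *Pdgfra* is high in clusters 1 and 4, *Pdgfrb* in cluster 5, *Pdgfa* in clusters 5 and 6, *Pdgfb* in clusters 2 and 3, and *Pdgfd* in clusters 2, 3 and 6.

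The genes whose levels ran most like each member over the 468 cells are given as a description. The cells share plates, groups and uneven depth, which all add to such likeness, and the order of genes moved with the cells used. For *Pdgfra* they were *Serpinf1* (r = 0.81), *Col1a1* (0.79), *Tgfbi* (0.78), *Olfml3* (0.75) and *Fbln2* (0.75), among 5962 genes. Among those of *Pdgfrb* were *Tnfaip1* (0.68), *Lims1* (0.64), *Itga1* (0.64) and *Myh9* (0.64). *Acta2* (0.53), *Mcam* (0.52), *Tpm2* (0.52), *Trpc6* (0.51) and *Des* (0.48) were most like *Pdgfa*, and *Ushbp1*, *Spock2*, *Ptprb*, *Sox18* and *Adgrl4* (0.57 to 0.58) most like *Pdgfb*. For *Pdgfd* they were *Sox18* (0.58), *S1pr1* (0.52), *Eogt* (0.51), *Sorbs2* (0.51) and *Mgll* (0.50). The closest genes to *Pdgfc*, led by *Pln* (0.32), had weak values in sparse counts. *Sox18*, an endothelial transcription factor gene, was among the 5 of both *Pdgfb* and *Pdgfd*. Of each 5 genes closest to *Pdgfra*, *Pdgfrb*, *Pdgfa*, *Pdgfb*, *Pdgfc* and *Pdgfd*, 4, 1, 4, 2, 3 and 4 were also among the 5 after thinning, 2, 0, 1, 4, 4 and 3 in uninjured cells alone and 3, 2, 2, 0, 0 and 1 in injured cells alone. *Des*, for one, had r = 0.14 with *Pdgfa* in uninjured and 0.65 in injured cells. Between the members themselves, *Pdgfb* and *Pdgfd* had r = 0.40, *Pdgfra* and *Pdgfrb* -0.35, *Pdgfrb* and *Pdgfa* 0.28, and *Pdgfra* and *Pdgfb* -0.34. After thinning, over 421 cells, these were 0.36, -0.55, 0.24 and -0.32.

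Other genes of the pathway were taken from a list of 39 genes in 5 roles. In the comparison of the sorts in uninjured cord, none of 38 genes tested was past the fold in either direction (median log2 difference 0.12, against 0.01 over all genes). Over all genes only 4.31% were past the fold upward and 3.61% downward, and the list is too small to be read against those shares. At 3 days 1 of 36 was higher in tdTomato+EGFP+ cells and 6 were lower, with a median of -0.39 against -0.32 over all genes and shares past the fold of 4.31% upward and 17.9% downward over all genes, which the counts of the list lie near. The higher one was *Dusp6*, a phosphatase gene that restrains ERK signalling (250.3 against 101.3 CPM, 1.30). Among the lower ones were the adaptor gene *Gab1* (11.1 against 43.1 CPM, -1.87), the inhibitor gene *Spry4* (66.3 against 184 CPM, -1.46), *Pik3r1*, the regulatory subunit of PI3-kinase (62.6 against 167 CPM, -1.41), and the phosphatase gene *Ptpn1* (36.04 against 88.2 CPM, -1.27).

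After injury 5 of 38 pathway genes were higher and 13 lower in tdTomato+EGFP+ cells (median -0.56, against -0.59 over all genes), and 5 higher and 7 lower in tdTomato-EGFP+ cells (median -0.10, against -0.20). Over all genes the shares past the fold were 10.8% upward and 34.3% downward for the tdTomato+EGFP+ sort, and 9.52% and 17% for the other. The counts of the list lay near these shares in both directions. By role, the 13 adaptors and effectors had 7 and 4 lower and none higher, and the 10 negative regulators 1 and 1 lower, counts too small to be read against those shares. *Plau*, the gene of urokinase, a protease known to activate PDGF-D, was higher in both sorts (34.9 against 8.07 CPM in tdTomato+EGFP+, 1.99, and 56.5 against 16.9 CPM in tdTomato-EGFP+, 1.69). *Itgb3*, an integrin subunit gene (49.2 against 9.03 CPM, 2.32; 64.1 against 5.58 CPM, 3.31), and *Myc* (52.9 against 10.1 CPM, 2.29; 47.6 against 6.43 CPM, 2.71) were higher in both sorts too. *Gab1* (-3.21 and -1.66), *Sos1*, a Ras exchange factor gene (-2.32 and -1.96), and *Plcg1*, a phospholipase gene (-2.25 and -2.05), were lower in both. In tdTomato+EGFP+ cells *Pik3ca* was at -2.08, and in tdTomato-EGFP+ cells *Pcsk6*, a proprotein convertase gene, was at -2.70 (pairs -3.56 to -0.11).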

How the data were processed

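The deposited data are a single matrix of counts, unnormalised whole numbers, with genes in rows and cells in columns. Of its 1968 cell columns, 503 match the labels and the other 1465 were not used. Per the labels the build is mm10. The aligner and the annotation are not given in the sources used here, nor whether reads or molecules were counted. Spike-in rows (92, with 0.0314% of the counts) were left out. Cells were kept with 200 or more genes and under 20% mitochondrial counts, which left 502. The rule for *Gfap* and *Ptprc* (over 1 on ln(1 + counts per 10000)) removed 0 and the rule for *Pecam1* (over 1 and over *Pdgfrb*) removed 34. Doublets were not called, as wells received sorted singlets.

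Counts were summed per group and scaled to CPM. Groups were compared as log2(CPM + 1), which understates changes of low genes, with no test since each group is 1 sample. The comparison was tested on simulated Poisson counts drawn from a common profile with set changes. These held no variation between plates or cells beyond counting error, so that test does not cover such variation. Shares used cells thinned to 20000 counts. Shallower cells were left out of the shares. Clustering used Seurat 5.3.0 (2000 variable genes without the 6 members, 20 principal components, resolution 0.5, with genes detected and mitochondrial and ribosomal shares regressed). A marker was called raised where it exceeded the other cells by at least 0.5 (log2) and was detected in at least 50% of a cluster. TMM factors came from edgeR 4.0.16 and size factors from DESeq2 1.42.0, both computed on the summed counts. Named pathway genes are up to the 4 largest past the fold in each direction of a comparison. Some genes that this rule or the likeness rule selects are not reported here. Likeness is Pearson's r on ln(1 + counts per 10000), among genes that reached 50 CPM and were detected in at least 20% of cells of some group. Members and lists were chosen with earlier results of these data known. Other settings tried were another pseudocount, minimum, fold, depth limit, gene limit, cell weighting, filter on endothelial transcripts, plate left out, clustering resolution and cell left out. Tools were Python 3.11.15, pandas 2.3.3, scipy 1.17.1 and R 4.3.3.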

Additional observations from a re-analysis of the deposited data

Results flagged for a closer look

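*Pdgfrb* had injury differences of opposite sign in the sorts in the sums and in all 4 plate pairs: -0.31 in tdTomato+EGFP+ cells and 0.40 in tdTomato-EGFP+ cells. This contrast was not tested, and with TMM factors both differences were above 0 (0.37 and 0.69). *Pdgfc* had a difference of 1.55 in tdTomato+EGFP+ cells, from 8 and 79 counts, and of -1.71 in tdTomato-EGFP+ cells, from 257 and 57 counts of which 1 uninjured cell held 168. This too was not tested, and the gene was under 10 CPM in every group.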

How the results depend on the processing

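At the 2-fold limit used, 1 member was past the fold between the sorts in uninjured cord, 5 between the sorts at 3 days, 2 after injury in tdTomato+EGFP+ cells and 3 after injury in tdTomato-EGFP+ cells. Over all genes the counts were 887, 2366, 5159 and 3030. For the sorts in uninjured cord, the member count was 2 with no minimum CPM or a 1.5-fold limit, 0 with a limit of 1200 genes per cell, 4 in cells under 1000 CPM of endothelial markers and, leaving out 1 plate, 1 to 3 (3 without plate 209). The gene count was 352 with a pseudocount of 10, 2203 with no minimum, 485 with 1200 genes, 3541 without cells with endothelial transcripts, 3596 under 1000 CPM, 2144 at 1.5-fold, 240 at 4-fold, and 1946 and 1961 without plates 209 and 213. For the sorts at 3 days, the member count was 0 without cells with endothelial transcripts and 3 under 1000 CPM or at 4-fold, and the gene count 1454 with a pseudocount of 10, 3715 without cells with endothelial transcripts, 4315 at 1.5-fold and 735 at 4-fold. For injury in tdTomato+EGFP+ cells the member count was 1 when CPM was averaged over cells, without cells with endothelial transcripts and under 1000 CPM, and the gene count 2258 at 4-fold. That member was *Pdgfd* (lower) with averaged CPM, *Pdgfrb* (higher, 1.07) without endothelial transcripts and *Pdgfra* (lower, -1.20) under 1000 CPM. For injury in tdTomato-EGFP+ cells the member count was 5 without plate 209, and the gene count 1917 with a pseudocount of 10, 4617 with no minimum, 4845 at 1.5-fold and 938 at 4-fold.

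*Pdgfb* changed sign between the sorts at 3 days when CPM was averaged over cells (1.15), where 1 cell of plate 215 had 1 *Pdgfb* count of 235 counts (4255 CPM), without cells with endothelial transcripts (0.75) and under 1000 CPM (0.033). Its injury difference in tdTomato+EGFP+ cells was 6.67 with the limit of 1200 genes and 0.50 under 1000 CPM. *Pdgfa* changed sign between the sorts at 3 days without cells with endothelial transcripts (0.79). In that setting the sort differences of *Pdgfrb* (0.44) and *Pdgfa* (1.96) in uninjured cord changed sign too. So did the injury differences of *Pdgfra* (-1.81) and *Pdgfrb* (1.07) in tdTomato+EGFP+ cells. Apart from the shallow cell, the cause was not tested. The setting without endothelial transcripts left few cells, and the limit of 1200 genes left 33 cells and none of the injured tdTomato-EGFP+ group, so the comparisons with that group gave no value. With 1 plate left out, the *Pdgfra* injury difference in tdTomato-EGFP+ cells ranged from 0.31 (without plate 213) to 2.84 (without plate 209). It was -1.36 without cells with endothelial transcripts, so its sign was not stable over the settings. No paired analysis was possible because the cells carry no replicate number shared between groups that names an animal, and no test was run. The limit under 1000 CPM was chosen after seeing the data. Depth limits *Pdgfc* in every group and all ligand genes on plate 215 of injured tdTomato+EGFP+ cells. Clustering at resolutions of 0.3 and 0.8 and without regression gave 3, 7 and 6 clusters.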
